A study of Mus musculus with 4 samples.

Results

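Tal1, Lyl1, Lmo2, Gata2, Runx1, Erg and Fli1 encode a set of 7 transcription regulators that bind together at enhancers of blood stem and progenitor cells. They were followed here through every probe set annotated to exactly 1 of them, 15 probe sets of 45037 in all, or 7 genes of 18193. Tal1 and Lyl1 are basic helix-loop-helix proteins, which pair with E proteins such as Tcf3 and bind E-box DNA. Lmo2 does not touch DNA itself, binds Ldb1, and bridges Tal1 or Lyl1 to the zinc finger protein Gata2. Runx1 binds DNA through its Runt domain with the partner Cbfb, and Erg and Fli1 belong to the ETS family. Several of the 7 are also active outside stem cells, Tal1 and Lmo2 in red cell precursors, Gata2 in mast cells, Erg and Fli1 in endothelium, and Fli1 and Runx1 in megakaryocytes.

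The cells were lineage-negative, cKit-positive, Sca1-positive (LSK) cells sorted at E13.5 from the livers of female mouse embryos of the genotype Hes1 GFP/WT, the fraction that holds stem cells and multipotent progenitors. Both groups carried the GFP reporter at 1 of the alleles of Hes1, a repressor switched on by Notch, and none of the arrays comes from embryos without it. The labels give 3 arrays of HES1-GFP negative cells and 1 array of HES1-GFP positive cells, and they do not say whether the 3 came from separate embryos or sorts, so the spread among them could be technical. With a single positive array every p-value assumes that it varies like the negative ones, and an exact permutation over the 4 arrays cannot give a p below 0.25.

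The arrays had nearly equal median intensities, 74.7 to 76.1 on the linear scale. Hes1 itself went against its label, at log2 intensities of 8.78, 9.07 and 6.70 in negative replicates 1, 2 and 3 and 6.57, the lowest, in the only HES1-GFP positive array, so every direction below is that of the labels only. Kit, given because it defined the sort, was at 9.90, 9.72, 9.68 and 10.13 in the same order, above the median of all probe sets at 6.23. Ly6a, which encodes Sca1, had no probe set of its own and was not analysed here. Markers of lineages that the sort was meant to remove were also bright, and they differed between arrays labelled alike. The summed intensity of 8 B lineage markers was 22326, 22002 and 4167 in negative replicates 1, 2 and 3 and 4045 in the array labelled positive. In these bulk samples fewer cells of a type and less RNA per cell cannot be told apart.

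All 15 probe sets of the 7 factors lay above the median level, and no difference between the labels passed the test. limma, fitted over all 45037 probe sets, called 0 of the 15 at an adjusted p under 0.05, and 0 at an unadjusted p under 0.05, with a lowest unadjusted p of 0.142 for 1 Runx1 probe set. Over all probe sets it called 0 (0.0%), with 2032 (4.51%) at an unadjusted p under 0.05. The difference of the array labelled positive from the mean of the negative arrays was above 0 in 8 of the 15 and below 0 in 7. Its median was 0.02 log2 units, beside -0.01 over all probe sets.

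In 6 of the 15 probe sets the array labelled positive was higher or lower than every negative array, and 46.9% of all probe sets were so placed. It lay above all 3 negative arrays in 2 of the 15 probe sets (23.2% of all probe sets did so) and below them in 4 (23.6%). The other 9 lay within the negative range. The 2 above were 1 probe set each of Gata2 and Runx1, and the 4 below were 3 of Runx1 and 1 of Fli1. None lay outside by as much as 1 log2 unit, as 1.98% of all probe sets did, and the largest distance was 0.36. Without negative replicate 3 the counts were 6 above and 6 below, against a range of fewer arrays, where 66.9% of all probe sets lay outside.

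**Figure D1:**
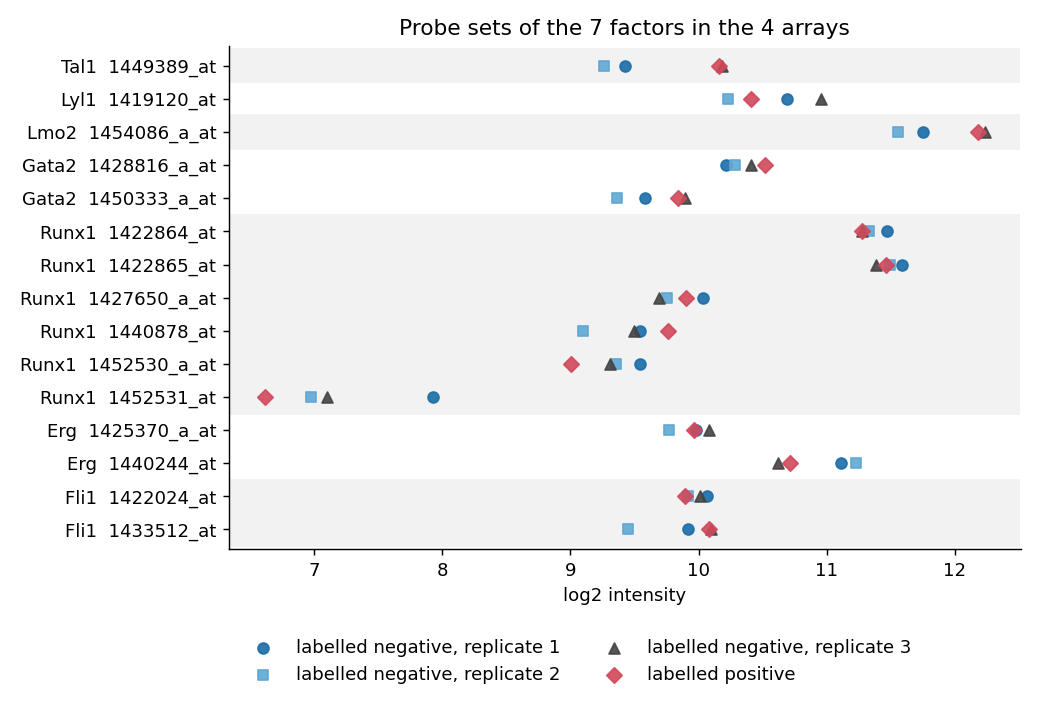
Log2 intensity (horizontal axis) of the 15 probe sets of the 7 factors (rows, with probe set identifiers), 1 point per array; levels may be compared along a row and not between rows. The array labelled positive lies inside the 3 negative arrays in 9 rows, and the arrays of a row are less than 1 log2 unit apart in 14 of the 15.

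Tal1, the founding helix-loop-helix factor of the set and a requirement for blood formation, showed the largest difference among genes taken by their brightest probe set. Its single probe set (1449389_at) was at log2 intensities of 9.43, 9.26 and 10.18 in negative replicates 1, 2 and 3 and at 10.16 in the array labelled positive. The arrays fell into a lower pair, negative replicates 1 and 2, and an upper pair of negative replicate 3 and the array labelled positive, so that the labelled groups overlapped. The difference was 0.53 ± 0.45 log2 units (standard error; limma adjusted p of 1.00). Its interval at 95% ran from -0.75 to 1.81, so a change of more than 1 log2 unit upward is within it. The difference was 0.35 without negative replicate 2 and 0.81 without negative replicate 3.

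Lyl1, the closest relative of Tal1 and able to stand in for it in adult stem cells, did not order the arrays in the same way. Its probe set (1419120_at) was at 10.69, 10.23 and 10.96 in negative replicates 1, 2 and 3 and at 10.41 in the array labelled positive. The array labelled positive lay between negative replicates 2 and 1, below negative replicate 3 by 0.54 log2 units, while in Tal1 these arrays were 0.03 apart. The difference from the negative mean was -0.22 with a standard error of 0.36 (limma adjusted p of 1.00). It was -0.05 without negative replicate 3 and -0.41 without negative replicate 2.

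The promoters of this pair are shown because the paralogues ordered the arrays differently. They are the 250 bases before the first listed transcription start in RefSeq (GRCm38.p6, plus strand of chromosomes 4 and 8), 5′ to 3′. Capitals mark a Gata site (the letters GATA), an E-box (the letters CANNTG) or an ETS core (the letters GGAA), each on either strand. A Runx core, the letters TGTGGT, was searched in the same way and would stand in capitals.
Tal1, chr4:115056176-115056425: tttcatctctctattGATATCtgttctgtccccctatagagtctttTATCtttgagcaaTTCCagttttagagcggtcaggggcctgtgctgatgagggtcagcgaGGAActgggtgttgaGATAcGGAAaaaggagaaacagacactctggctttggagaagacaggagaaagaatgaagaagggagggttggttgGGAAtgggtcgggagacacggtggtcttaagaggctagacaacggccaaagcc
Lyl1, chr8:84701207-84701456: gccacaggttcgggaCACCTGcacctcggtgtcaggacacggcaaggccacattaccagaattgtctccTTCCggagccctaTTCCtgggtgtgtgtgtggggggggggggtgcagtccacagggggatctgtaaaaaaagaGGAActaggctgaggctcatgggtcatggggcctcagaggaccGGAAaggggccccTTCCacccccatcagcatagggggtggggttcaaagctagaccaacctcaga
The Tal1 window held 4 Gata sites, of which a pair on opposite strands overlap, 4 ETS cores and no E-box. The Lyl1 window held 1 E-box, 5 ETS cores and no Gata site. A Runx core was found in neither window. Tal1 has a second listed start, and its window (chr4:115057561-115057810, not shown) held 3 ETS cores and no Gata site, E-box or Runx core. The count of Gata sites for Tal1 thus depends on the start taken.

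Lmo2, the LIM-domain bridge of the complex, ordered the arrays as Tal1 did. Its probe set (1454086_a_at) was at 11.75, 11.56 and 12.23 in negative replicates 1, 2 and 3 and at 12.18 in the array labelled positive. Negative replicate 3 and the array labelled positive were again the upper pair, 0.05 log2 units apart, and the labelled groups overlapped. The difference was 0.33 with a standard error of 0.35 (limma adjusted p of 1.00), 0.19 without negative replicate 2 and 0.52 without negative replicate 3.

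Gata2, which controls the emergence and survival of stem cells and is also high in mast cells, was measured by a pair of probe sets. In 1428816_a_at the log2 intensities were 10.21, 10.28 and 10.41 in negative replicates 1, 2 and 3 and 10.52 in the array labelled positive, which was the highest of the 4 by 0.11. In 1450333_a_at they were 9.59, 9.37 and 9.90, and 9.84 in the array labelled positive. Both placed negative replicate 3 and the array labelled positive above negative replicates 1 and 2. The differences were 0.22 with a standard error of 0.21 and 0.23 with a standard error of 0.29, and limma's adjusted p was 1.00 for both. They ranged from 0.17 to 0.27 and from 0.10 to 0.37 when negative arrays were left out in turn.

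Mast cell and basophil markers as a sum ordered the arrays differently from Gata2. The summed intensity of the 7 of 8 markers measured was 14367, 14779 and 2123 in negative replicates 1, 2 and 3 and 1861 in the array labelled positive, a span of 7.94-fold from lowest to highest. Hdc, the histamine-forming enzyme and the brightest of them, was at log2 intensities of 11.90, 12.08, 10.54 and 10.18 in the same order. The brighter Gata2 probe set spanned 1.24-fold and was lowest in negative replicates 1 and 2, where the sum was highest. Not every marker followed the sum: Mcpt8, a basophil protease, named after its values were seen, was at 5.91, 6.24, 7.78 and 7.55, lowest in negative replicates 1 and 2 as Gata2 was.

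Runx1, needed for the first stem cells to form and later for megakaryocytes and lymphoid cells, had 6 probe sets, and they did not move together. The brightest pair, 1422865_at and 1422864_at, barely varied. 1422865_at was at 11.59, 11.49 and 11.38 in negative replicates 1, 2 and 3 and 11.46 in the array labelled positive, a difference of -0.03 that became 0.02 without negative replicate 1. 1422864_at was at 11.47, 11.33, 11.28 and 11.28 in the same order, and the array labelled positive lay below negative replicate 3 by only 0.002.

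The dimmer Runx1 probe sets went both ways. 1440878_at was at 9.54, 9.10 and 9.50 in negative replicates 1, 2 and 3 and at 9.76 in the array labelled positive, the highest of the 4, with a difference of 0.38. 1452530_a_at was at 9.54, 9.35 and 9.31 and at 9.004 in the array labelled positive, the lowest of the 4, with a difference of -0.40. 1452531_at, the dimmest of the 15, was at 7.93, 6.97 and 7.10 and at 6.62 in the array labelled positive, also the lowest, with a difference of -0.72. The remaining 1427650_a_at was at 10.03, 9.75, 9.69 and 9.90, with the array labelled positive inside the negative range.

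None of the 6 Runx1 probe sets passed limma (adjusted p of 1.00 for each), and their standard errors ran from 0.21 to 0.47. For 1452531_at the difference was -0.42 without negative replicate 1, the array in which it was highest. The sources used here do not say which transcript each probe set reads. The suffix a_at marks a set whose probes match several transcripts of a gene.

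Runx1 is transcribed from 2 starts in RefSeq, a distal and a proximal one that give different first exons, and both windows are shown because its probe sets diverged. They are the 250 bases before each start on the minus strand of chromosome 16 (GRCm38.p6), with capitals as above.
Runx1 distal start, chr16:92826075-92826324: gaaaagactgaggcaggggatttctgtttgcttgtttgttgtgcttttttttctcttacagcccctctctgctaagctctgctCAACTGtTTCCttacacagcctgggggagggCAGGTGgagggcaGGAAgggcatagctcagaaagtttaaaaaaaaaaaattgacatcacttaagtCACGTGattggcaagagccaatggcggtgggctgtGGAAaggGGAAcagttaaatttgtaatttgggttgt
Runx1 proximal start, chr16:92697330-92697579: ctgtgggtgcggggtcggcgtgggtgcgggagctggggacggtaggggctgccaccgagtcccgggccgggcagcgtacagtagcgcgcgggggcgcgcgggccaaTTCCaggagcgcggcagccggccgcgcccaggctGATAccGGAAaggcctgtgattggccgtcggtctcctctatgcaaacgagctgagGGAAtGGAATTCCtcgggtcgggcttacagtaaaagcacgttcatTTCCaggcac
The distal window held 3 E-boxes, 4 ETS cores and no Gata site, with a GC content of 45.6%. The proximal window held 1 Gata site, 6 ETS cores and no E-box, with a GC content of 67.6%. The arrays give no value for either start, so no level could be assigned to one or the other.

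RefSeq promoters were matched for 5 of the 7 genes (Tal1, Lyl1, Gata2, Runx1 and Erg), with 10 starts in all. A Gata site was found before 4 of the 10 starts, against 53.6% of 32851 mouse promoters with windows of the same length. An E-box was found before 3 of 10, against 66.2%, and an ETS core before 9 of 10, against 93.4%. A Runx core was found before 0 of 10, against 14.0%. These are letter matches in short windows and say nothing of binding.

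Erg and Fli1, the ETS factors of the set, each had a pair of probe sets that did not order the arrays alike. The brighter Erg set, 1440244_at, was at 11.11, 11.23 and 10.62 in negative replicates 1, 2 and 3 and at 10.71 in the array labelled positive. Here negative replicate 3 and the array labelled positive were the lower pair, the reverse of Tal1 and Lmo2, and the difference was -0.28 with a standard error of 0.33 (limma adjusted p of 1.00). The other set, 1425370_a_at, was at 9.98, 9.77, 10.08 and 9.96 in the same order, a difference of 0.02 that turned to -0.04 under cyclic loess and to -0.07 without negative replicate 2. The array labelled positive lay inside the negative range in both.

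Fli1, which also drives megakaryocyte genes, was the steadiest gene by its brighter probe set. 1422024_at was at 10.06, 9.92 and 10.01 in negative replicates 1, 2 and 3 and at 9.89 in the array labelled positive, a span of 0.17 log2 units over the 4 arrays. Its difference of -0.10 (standard error 0.20, limma adjusted p of 1.00) became 0.08 when the probe sets of the gene were averaged. The second set, 1433512_at, was at 9.92, 9.45, 10.10 and 10.08, low in negative replicate 2 alone, and differed by 0.26 with a standard error of 0.34.

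**Figure D2:**
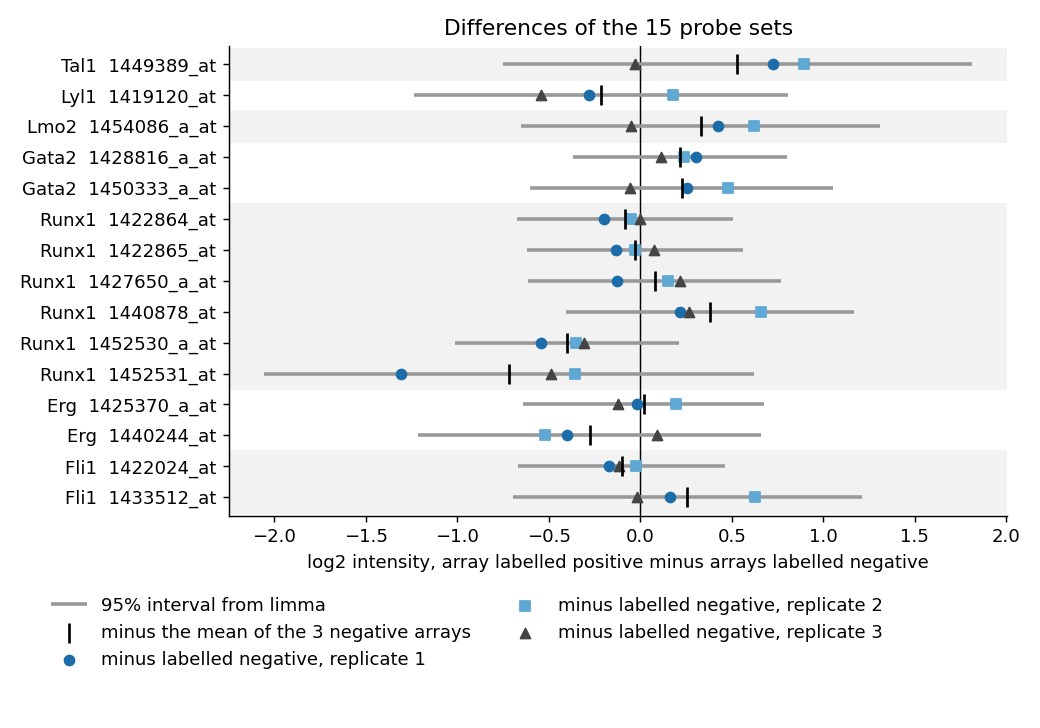
Array labelled positive minus each array labelled negative (coloured points) and minus their mean (black tick), in log2 units, for the 15 probe sets (rows); grey bars are 95% intervals from limma over all probe sets. Every interval spans 0, from -0.75 to 1.81 for Tal1 and from -0.67 to 0.46 for the brighter Fli1 probe set.

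The endothelium expresses Erg and Fli1 strongly, and its markers were among those that differed between the arrays. The summed intensity of 8 endothelial markers was 4043, 3389 and 1617 in negative replicates 1, 2 and 3 and 1003 in the array labelled positive. Pecam1, an adhesion molecule of endothelium and the brightest of them, was at log2 intensities of 10.03, 9.27, 7.93 and 7.76 in the same order. The brighter Erg probe set shared the higher pair of arrays with their sum and spanned 1.53-fold, against 4.03-fold for the sum. The other Erg set and both Fli1 sets did not share that pair. Of these, Erg 1425370_a_at and Fli1 1433512_at were highest in negative replicate 3. Emcn and Tie1, 2 of the 8 markers named after their values were seen, went differently from the sum, with their highest values in negative replicate 3, at 9.19 and 8.25. The part of endothelial cells in the Erg and Fli1 values was not tested.

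Set side by side, 4 of the 15 probe sets had the order seen in Tal1, with negative replicate 3 highest, then the array labelled positive, then negative replicates 1 and 2. They were those of Tal1 and Lmo2, the second of Gata2 and the second of Fli1, while 6.41% of all probe sets above the median level had this order. The order was taken from Tal1 after its values were seen, and Tal1 is 1 of the 4 by construction. The count beside that share is therefore no test of an excess. The array labelled positive was closest to negative replicate 3 in 8 of the 15 probe sets, to replicate 2 in 4 and to replicate 1 in 3. Over all probe sets it was closest to negative replicate 3 in 39.7%. Between negative replicate 3 and the array labelled positive the median absolute difference was 0.11 log2 units over the 15 probe sets, the smallest of the 6 pairs of arrays, and 0.23 over all probe sets, also the smallest. The other 5 pairs had medians of 0.19 to 0.35 over the 15.

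The spread of the factors over the arrays was compared with that of other bright probe sets. The span from lowest to highest array had a median of 0.54 log2 units over the 15 probe sets, and 0.75 over all 22518 probe sets above the median level. It was under that 0.75 in 13 of the 15, the exceptions being Tal1 at 0.92 and the dimmest Runx1 set at 1.31. It was under 1 log2 unit in 14 of the 15 and in 65.6% of the bright probe sets. Fli1 1422024_at had the narrowest span, and 4.67% of bright probe sets had a narrower one. The bright probe sets were not matched to the 15 in level, and Runx1 gives more of the 15 than any other gene. Taken by their brightest probe sets, the 7 factors had a median span of 0.61 log2 units.

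**Figure D3:**
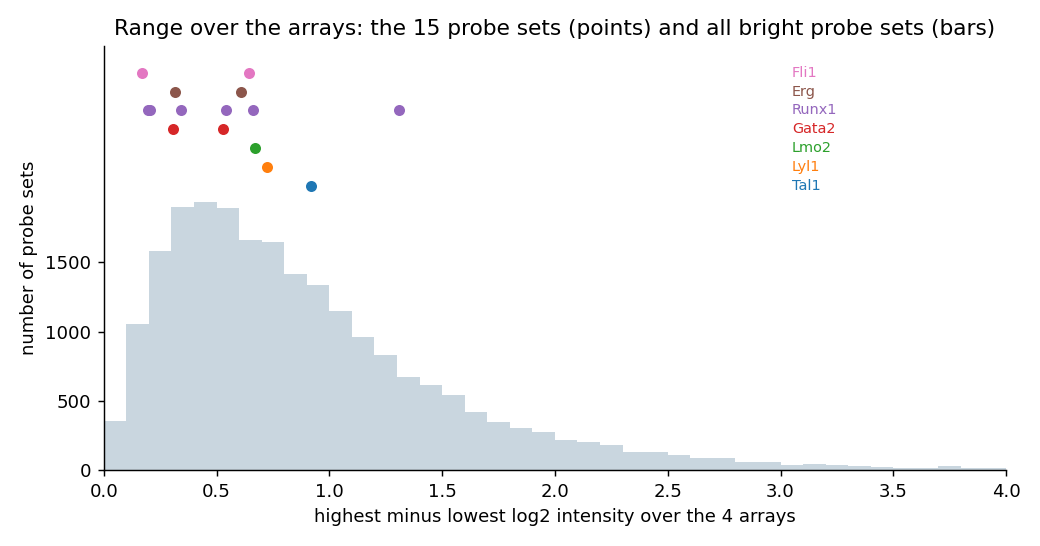
Highest minus lowest log2 intensity over the 4 arrays (horizontal axis) for all 22518 probe sets above the median level (bars, number of probe sets per 0.1 log2 units) and for the 15 probe sets of the 7 factors (points, 1 row per gene, height without meaning). The points run from 0.17 for Fli1 to 1.31 for Runx1; 92 bright probe sets with a span over 4 are beyond the axis.

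Marker lists of other cell types spanned up to several-fold over the same arrays. The summed intensity of the 7 factors, taken by their brightest probe sets, was 13351, 12326 and 14594 in negative replicates 1, 2 and 3 and 14052 in the array labelled positive, a span of 1.18-fold. Macrophage markers summed to 19377, 18573, 2515 and 3067 in the same order, a span of 7.70-fold, and B lineage markers spanned 5.52-fold. Their brightest members were C1qb, a complement chain, at 12.97, 12.94, 10.08 and 10.89 in log2 intensity, and Vpreb1, a surrogate light chain of pre-B cells, at 12.77, 12.64, 10.85 and 10.54. Granulocyte markers ran the other way, at 29798, 32768, 64874 and 65640, with S100a8, a neutrophil calcium-binding protein, at 13.505, 13.56, 14.08 and 14.09.

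Erythroid, megakaryocyte, hepatoblast and LSK markers were summed in the same way. Erythroid markers, of which 6 of 8 were measured, summed to 8147, 7567, 9600 and 9364, with negative replicate 3 and the array labelled positive high as in Tal1 and Lmo2. Tfrc, the transferrin receptor and the brightest of them, did not follow, at log2 intensities of 11.88, 11.79, 11.60 and 11.65. Megakaryocyte markers (7 of 8) summed to 2362, 2592, 1497 and 2113, with Pf4, a platelet chemokine and the brightest, at 10.46, 10.65, 9.10 and 10.05. Its list did not move together. Pf4, Ppbp and Gp1bb were lowest in negative replicate 3, Itga2b, Gp9 and Gp5 in negative replicate 1, and Vwf in the array labelled positive. Hepatoblast markers (7 of 8) summed to 2241, 1612, 2455 and 2378, with the liver factor Hnf4a at 8.14, 8.05, 8.76 and 9.41. Hnf4a alone of them was highest in the array labelled positive. Alb, Afp and Ttr were highest in negative replicate 1, Apoa1 and Ahsg in replicate 2, and Dlk1 in replicate 3. The LSK markers (7 of 8) summed to 15301, 12387, 13280 and 13514, and Flt3, a receptor of multipotent and lymphoid progenitors and the brightest of them, was at 12.12, 11.95, 11.63 and 11.07. Flt3 was lowest in the array labelled positive, whereas Kit and Cd34 were highest there, Cd34 at 11.42, 10.80, 11.70 and 11.87. The other 4 lay within the negative range. The part of any of these cell types in the values of the 7 factors was not tested.

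**Figure D4:**
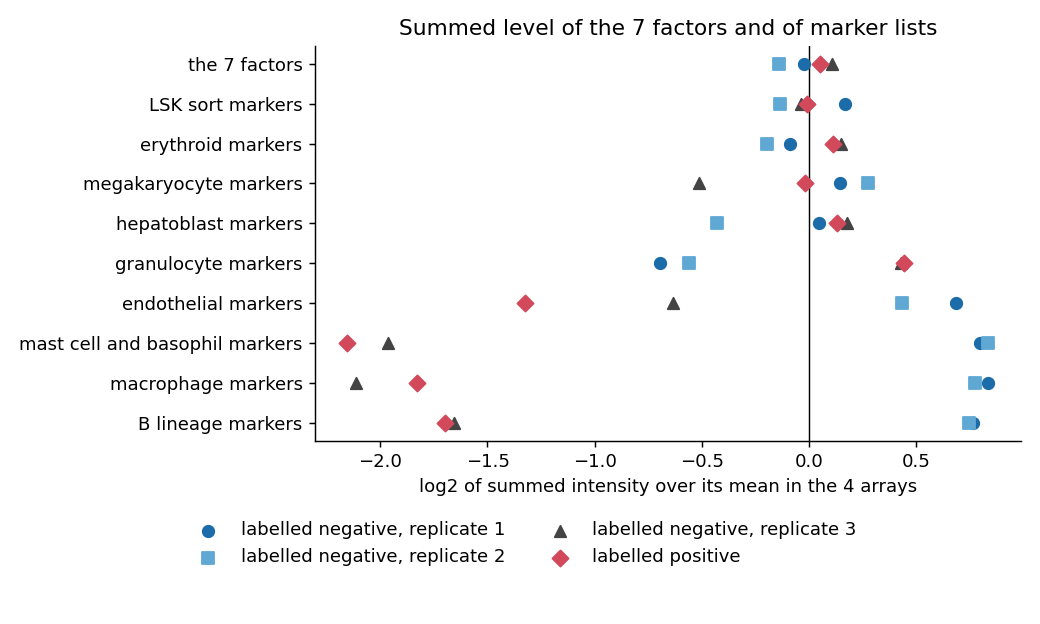
Log2 of the summed intensity of a gene list over its mean in the 4 arrays (horizontal axis) for the 7 factors and 9 marker lists (rows), 1 point per array, 1 probe set per gene. The 7 factors lie between -0.14 and 0.10, while the macrophage list runs from -2.11 to 0.83.

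Genes of proteins that work with the 7 factors were read in the same way. Of 22 partners and cofactors, all measured and all above the median level, 3 lay above the negative range, 1 below and 18 within, and 0 passed limma. Over all 18193 genes 23.6% lay above and 23.0% below. The counts were 7 above and 3 below without negative replicate 1, 5 and 3 without replicate 2, and 8 and 4 without replicate 3. Against these ranges of fewer arrays 64.5%, 62.3% and 66.9% of all probe sets lay outside, in the same order. With averaged probe sets the counts were 4 and 4, where 47.1% of all genes lay outside. The median difference of the 22 was 0.07 log2 units, beside -0.0012 over all genes. It was -0.0025 with the probe sets of a gene averaged. Ldb1, the scaffold that Lmo2 binds, was at 11.41, 11.01 and 10.95 in negative replicates 1, 2 and 3 and at 11.26 in the array labelled positive. Cbfb, the partner of Runx1, was at 11.43, 11.32, 11.24 and 11.41, a span of 0.19.

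Helix-loop-helix partners and their inhibitors were part of this list. Tcf3, the E protein that pairs with Tal1 and Lyl1, was at 10.35, 10.91, 9.92 and 10.29, a difference of -0.11 that turned to 0.15 without negative replicate 2. Id1, an inhibitor that captures E proteins, was at 8.23, 8.48 and 8.78 in the negative arrays and at 8.95 in the array labelled positive, above all 3, with a difference of 0.45. Id2, a second inhibitor, was at 9.75, 9.64, 9.96 and 10.10, and of its other probe sets 1 differed in the same direction and 1 in the opposite. Ssbp3, which stabilises Ldb1, differed by 0.31, and the acetyltransferase Crebbp by -0.32, with 1 of its 3 other probe sets in the opposite direction. None of these passed limma (adjusted p of 1.00 for each).

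Relatives of the 7 factors lay on both sides of the negative range. Of 19 genes of the same families, 18 were measured (Runx2 had no probe set of its own), 4 above the negative range (23.6% of all genes), 4 below (23.0%) and 10 within. Both shares are near those over all genes. Without negative replicate 3 the counts were 7 above and 9 below, where 34.4% of all probe sets lay above and 32.5% below. The median of their differences was -0.08 log2 units, and limma called 0. Their span over the 4 arrays reached 1 log2 unit in 6 of 18 genes, and in 0 of the 7 factors taken by their brightest probe sets, while 65.6% of all bright probe sets stayed under it. Among the 22 partners and cofactors 2 reached it. The median span of those 22 was 0.52 log2 units, narrower than the 0.61 of the 7 factors. Gata3, the T cell counterpart of Gata2, was at 8.22, 7.85 and 6.21 in negative replicates 1, 2 and 3 and at 5.83 in the array labelled positive. Spib, an ETS factor of B and dendritic cells, was at 10.15, 10.60, 8.60 and 8.43.

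In both genes negative replicate 3 lay with the array labelled positive, as in the summed B lineage markers. Elk4, a ubiquitous ETS factor, was at 11.15, 11.10, 10.95 and 10.45, a difference of -0.62. Lmo1, the relative of Lmo2 known from T cell leukaemia, was at 6.84, 7.11, 7.62 and 7.65, a difference of 0.46. The limma adjusted p was 1.00 for each of the 4 genes.

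Among other transcription factors of stem and progenitor cells limma called 0 genes, and those outside the negative range lay above it. Of 16 genes, 15 were measured, 7 above the negative range (23.6% of all genes), 0 below (23.0%) and 8 within. The median of their differences was 0.42 log2 units. With the probe sets of a gene averaged the median was 0.06, with 4 genes above and 2 below, and without negative replicate 3 the counts were 10 above and 4 below, where 34.4% of all probe sets lay above and 32.5% below. Hlf, a factor that marks stem cells, was at 10.14, 9.66 and 10.52 in negative replicates 1, 2 and 3 and at 10.57 in the array labelled positive, and Hoxa9, a homeobox factor of progenitors, was at 10.06, 10.23, 10.33 and 10.65.

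The probe sets of these genes did not always share a direction. Ikzf2, an Ikaros family member, differed by 0.82, but both of its other probe sets were in the opposite direction and their average differed by -0.13. Mycn, which supports stem cell growth and survival, differed by 0.48 and its average by -0.13. For Hoxa9 the other probe set differed by -0.18, and for Hlf by 0.48. The list holds none of the 7 factors.

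Genes known to be controlled through elements that these factors bind lay on both sides of the negative range. Of 20 genes, 18 were measured, 5 above the negative range (23.6% of all genes), 2 below (23.0%) and 11 within. The median of their differences was 0.20 log2 units, and limma called 0. Without negative replicate 3 the counts were 11 above and 6 below, where 34.4% and 32.5% of all probe sets were. Cd34, a stem cell and endothelial surface protein, was at 11.42, 10.80 and 11.70 in negative replicates 1, 2 and 3 and at 11.87 in the array labelled positive. Meis1, a homeobox partner, was at 8.90, 8.68, 9.13 and 9.32.

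Kdr and Tek, both receptors of the list, lay on opposite sides of the negative range. Kdr, a receptor of vascular growth factor, was at 8.15, 7.75, 5.80 and 5.44, and Tek, the angiopoietin receptor of endothelium and stem cells, at 6.19, 6.04, 6.72 and 7.36. Kdr was lower in negative replicate 3 as well as in the array labelled positive, and Tek was highest in the latter, by 0.64 over negative replicate 3. The limma adjusted p was 1.00 for Cd34, Meis1, Kdr and Tek.

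**Figure D5:**
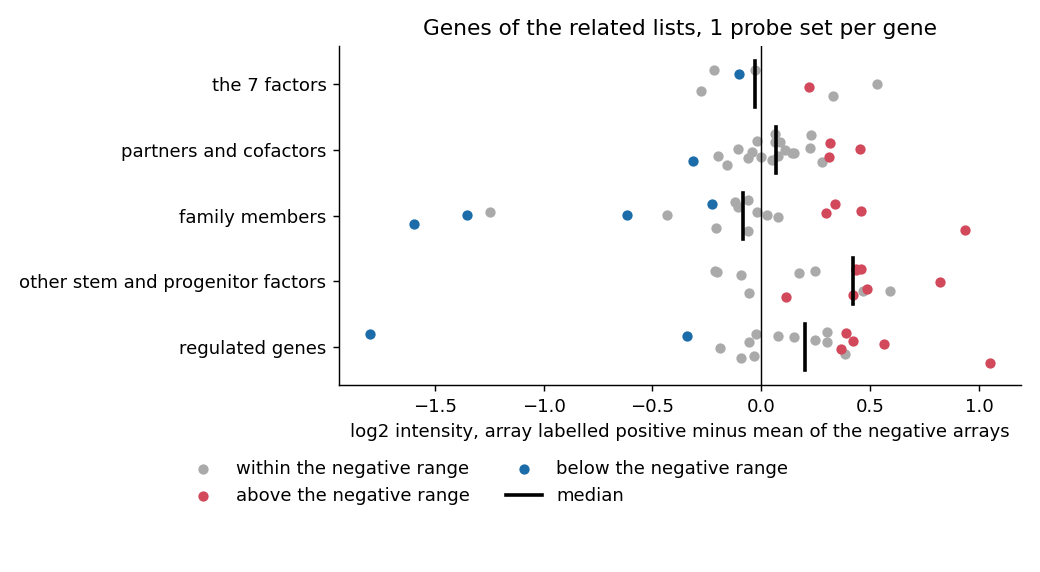
Array labelled positive minus the mean of the arrays labelled negative, in log2 units (horizontal axis), for each gene of 5 lists (rows), 1 probe set per gene; colour gives the position against the range of the 3 negative arrays, the black line is the list's median, and height within a row has no meaning. The 7 factors lie between -0.28 and 0.53, and the family members reach from -1.60 to 0.94. The last value is that of Tal2, whose probe set lay below the median level of all probe sets.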

How the data were processed

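RNA of 4 sorted cell samples was measured on Affymetrix arrays. Per the labels' protocols, a Nugen Ovation kit amplified 5 ng of total RNA, and the cDNA carried biotin. Per the submitters' processing notes the deposited intensity values were made with RMA, which equalizes the arrays' distributions, so total RNA per cell is not visible. Its version is not given in the sources used here. Detection calls were not used. The deposited intensities, 4.27 to 27451.5, are on a linear scale.

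Their log2 was taken without a pseudocount. Of 45101 probe sets, 64 controls were left out, 34945 carried 1 gene symbol in the platform annotation and were named, 932 carried several and 9160 none. By gene ID 34741 of the 34945 matched the reference gene table (GRCm38.p6). A gene in a list is given by its brightest probe set (mean of the 4 arrays). limma 3.58.1 (R 4.3.3) compared positive with negative (lmFit, eBayes, two-sided, Benjamini-Hochberg over 45037 probe sets, 2 residual and 1.80 prior degrees of freedom). A check on simulated data required only that the size of large differences be recovered. It set no demand on how many were called, so it does not show that limma could find changes here. Counts against the negative range carry no test. Intervals cover 95%. The number of arrays limits precision.

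The 7 genes, the lists and the tests were chosen with earlier results of these data known. Genes named from lists were the up to 4 with the largest difference outside the negative range and above the median level, with Ldb1, Cbfb and Tcf3 in any case, and the brightest marker of each marker list. Genes of like pattern were to be named for genes whose brightest probe set spanned at least 1 log2 unit, which 0 of the 7 did. The 9 alternatives were cyclic loess, a pseudocount of 16, only probe sets above the median level, trend and robust eBayes, averaged probe sets, 1 probe set per gene, and leaving out each negative array. Promoters are RefSeq's (GRCm38.p6), cut to the 250 bases before the start.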

Additional observations from a re-analysis of the deposited data

How the results depend on the processing

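limma called 0 of the probe sets or genes tested under each of the 9 alternatives, with 724 to 3275 at an unadjusted p under 0.05. No probe set of the 7 factors had an adjusted p below 0.686 under any of them. Of 112 recomputed differences of the 15 probe sets, 108 kept their direction. Some of these could not turn. Trend and robust eBayes and the limit to probe sets above the median level leave each difference as it was. Averaging likewise cannot change Tal1, Lyl1 or Lmo2, which have 1 probe set each. The 4 that turned were Runx1 1422865_at, at 0.0228 without negative replicate 1 (range -0.0802 to 0.0228 over the replicates left out), Erg 1425370_a_at, at -0.0352 under cyclic loess and -0.0688 without negative replicate 2 (range -0.0688 to 0.0888), and Fli1 1422024_at, at 0.0771 with averaged probe sets. Among other named genes, Tcf3 was at 0.15 without negative replicate 2 (range -0.34 to 0.15), and with averaged probe sets Ikzf2 was at -0.13 and Mycn at -0.13. The causes were not tested. The array labelled positive lay above the negative range in 1 and below it in 1 of the 7 genes, both with averaged probe sets and with 1 probe set per gene, where fewer features are counted by construction. Of all genes 47.1% and 46.6% lay outside under these settings. Without a negative replicate the array labelled positive lay above in 2 to 6 and below in 4 to 6 of the 15 probe sets. Against those ranges of fewer arrays 62.3% to 66.9% of all probe sets lay outside. No paired analysis was possible because the labelled groups share only 1 replicate number. With 1 positive array and without detection calls, differences of the size seen here cannot be resolved.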
